A study of Mus musculus with 6 samples.

Results

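Fibrinogen, the plasma protein that thrombin turns into the fibrin of a clot, is built from 3 chains encoded by Fga, Fgb and Fgg. These genes were followed together with Fgl1, a hepatocyte-secreted relative that carries a fibrinogen-like domain, in hepatocytes with and without forced expression of the microRNA miR-206. The 4 genes were matched by symbol among 49315 genes in the count table. They were chosen by their difference between the same groups, so their levels and fold changes are given as a description, with no test.

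The study comprised 6 RNA sequencing libraries of hepatocytes from male C57BL/6J mice (8 weeks old, 3 mice). Mice received by hydrodynamic injection 20 µg of pT3-TTR-miR-206-IRES-GFP, a transposon plasmid in which the hepatocyte-active Ttr promoter drives miR-206 with GFP, and 0.8 µg of a pCMV/Sleeping Beauty transposase plasmid. After 4 weeks, hepatocytes from perfused livers were separated by flow cytometry, and the GFP-negative fraction gave the 3 control libraries and the GFP-positive fraction the 3 miR-206 libraries. The labels give the control cells the genotype Wild-type and the treatment Empty vector, whereas the design text draws both fractions from injected mice, and which of these holds cannot be told from the counts. If both fractions came from the same mice, then all libraries share the injection, and the groups differ in carrying the transgene. Mir206 was counted at 0 in all 6 libraries, which were made with an mRNA kit, so the transgene could not be checked.

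Fibrinogen is made almost wholly by hepatocytes, which assemble the chains in the endoplasmic reticulum as paired sets held by disulfide bonds and secrete the finished protein. Transcription of the chain genes depends on hepatocyte factors such as those of the C/EBP family, and it is raised in the acute phase response by interleukin-6 acting through STAT3. Fgl1 is also an interleukin-6 responsive liver gene, and its protein is a known ligand of the lymphocyte receptor Lag3.

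Fga, Fgb and Fgg lie side by side on mouse chromosome 3 (GRCm38, GENCODE M21 annotation) within 42.1 kb. Fgg is at chr3:83007724-83015049 on the plus strand, Fga at chr3:83026076-83033627 on the plus strand, and Fgb at chr3:83040141-83049863 on the minus strand. The gaps are 11 kb between Fgg and Fga and 6.5 kb between Fga and Fgb. Fgl1 lies elsewhere, at chr8:41191434-41215156 on the minus strand. The long noncoding RNA gene Gm30097 runs antisense to Fgg over 115 exonic bases. It held 3 to 18 counts per library, far below Fgg, and the strand setting of the counting is not given in the sources used here.

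The microRNA that was overexpressed and the sequences upstream of the chain genes are shown because the groups differ in the first and the chain genes share regulators that act at the second. The mature microRNA is at chr1:20679055-20679076 on the plus strand (RefSeq, GRCm38.p6), and capitals mark its seed, bases 2 to 8.
mmu-miR-206-3p: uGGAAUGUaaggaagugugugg
A site was counted where a 3′ UTR held the complement of the whole seed. None of the longest annotated 3′ UTRs of the 4 members held one (270 bases in Fga, 2262 in Fgb, 362 in Fgg and 87 in Fgl1), beside 10.1% of the 20998 genes with a 3′ UTR. The 3′ UTR of Fgb held 2 shorter matches of 6 bases, the first at base 1388, shown with the match in capitals. An A follows this match, which makes it a recognised form of seed site. Sites of that form were left out of the count and of the 10.1%.
Fgb 3′ UTR: ggctttccatCATTCCagtacaaatt

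Of the 4 members, 3 had an entry in the RefSeq promoter table (GRCm38.p6), and the bases upstream of each start are printed 5′ to 3′ in the direction of the gene. They are chr3:83025903-83026075 for Fga, chr3:83049864-83050113 for Fgb on the minus strand, and chr3:83007474-83007723 for Fgg. For Fga only 173 bases are printed, since the print stops at the GENCODE gene start, which lies upstream of the RefSeq start. Capitals mark matches on either strand to CTGGGA (the core of the interleukin-6 response element) and TTGCNNAA (C/EBP).
Fga promoter: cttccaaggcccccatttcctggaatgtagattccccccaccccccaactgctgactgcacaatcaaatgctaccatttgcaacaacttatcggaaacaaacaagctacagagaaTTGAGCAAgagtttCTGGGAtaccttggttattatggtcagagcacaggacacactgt
Fgb promoter: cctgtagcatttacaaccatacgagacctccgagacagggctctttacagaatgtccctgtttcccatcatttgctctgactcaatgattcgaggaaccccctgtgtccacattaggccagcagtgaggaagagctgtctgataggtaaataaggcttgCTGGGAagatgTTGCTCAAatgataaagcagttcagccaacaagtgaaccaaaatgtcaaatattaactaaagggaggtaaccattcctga
Fgg promoter: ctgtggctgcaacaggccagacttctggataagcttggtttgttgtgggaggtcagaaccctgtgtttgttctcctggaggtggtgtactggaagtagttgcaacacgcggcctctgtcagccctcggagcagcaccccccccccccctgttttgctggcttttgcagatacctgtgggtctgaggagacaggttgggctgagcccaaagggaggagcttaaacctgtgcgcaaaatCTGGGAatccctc
The letters CTGGGA occurred within 250 bases upstream of the RefSeq start of all 3 chain genes, against 27.0% of 32817 promoters searched over the same length. For Fga those 250 bases include some inside the GENCODE gene, which are not printed. In Fga and Fgb, TTGCNNAA lay close beside CTGGGA, at 135 to 128 bases upstream of the RefSeq start in Fga and 80 to 73 in Fgb. TTGCNNAA was not matched in the Fgg window, and 9.6% of promoters held it. The letters TATAAA were in none of the 3 windows and in 12.4% of promoters.

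The chain mRNAs were among the most abundant in every library, and they took a larger share of the nuclear-encoded counts in the miR-206 libraries than in the controls. Values are nuclear CPM, counts scaled to the library's total (CPM) outside the mitochondrially encoded genes. Mitochondrial genes took 9.16% to 36.0% of the counts in controls and 11.2% to 63.8% in miR-206 libraries, so the choice of denominator matters here. Together the 3 chains made up 1.26%, 0.912% and 0.911% of nuclear counts in control 1 to 3, and 2.83%, 1.70% and 2.32% in miR-206 1 to 3. The 95% Wilson intervals of these shares reach at most 0.019 percentage points either way and cover counting error only.

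Fgb, which encodes the Bβ chain, held the most counts of the members in every library. In nuclear CPM per exonic kilobase it stood at 1455, 1168 and 1108 in controls beside 1556, 1113 and 1142 for Fgg, so the order of these chains depended on the library, and on the longest transcripts Fgg was above Fgb in all 6. The level of Fgb was 5542, 4449 and 4222 nuclear CPM in the control group, against 13148, 8091 and 10918 with miR-206, a mean of 4738 ± 706 against 10719 ± 2535 (SD, n = 3 each). The groups did not overlap, and the lowest miR-206 library was 1.46 times the highest control. It ranked 18th to 31st among nuclear protein-coding genes in the controls and 5th to 7th in the miR-206 libraries.

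Fga, which encodes the Aα chain whose end thrombin trims first, stood at 3755, 2346 and 2502 nuclear CPM in the control group, against 8347, 4705 and 6635 with miR-206. The means were 2867 ± 773 and 6563 ± 1822 (SD, n = 3 each), a ratio of 2.29. Fgg, which encodes the γ chain that carries sites for fibrin cross-linking and platelet binding, stood at 3257, 2329 and 2389 in the control group, against 6788, 4209 and 5611 with miR-206, with means of 2659 ± 519 and 5536 ± 1291 and a ratio of 2.08. Neither gene overlapped between groups. In all 3 chain genes control 1 was the highest control and miR-206 2 the lowest miR-206 library.

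Fgl1 was expressed at a far lower level and its groups overlapped. It stood at 205, 202 and 198 nuclear CPM in the control group, against 354, 199 and 281 with miR-206, a mean of 202 ± 3.76 against 278 ± 77.6 (SD, n = 3 each). The library miR-206 2 lay within the narrow control range, and the other two miR-206 libraries lay above it. Of the genes tested, 60.5% had a higher nuclear CPM in each miR-206 library than in any control, and 12.6% did so among the 6458 genes kept by a filter on library background (6.51% with another reading of that filter). The filter averages each gene's ratio to background over the libraries, and background was lower in the controls, so genes that are high in the controls alone pass it. The kept genes had a median TMM log2 fold change of -2.29 against 0.45 for all genes tested, so shares over them are not a neutral reference.

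**Figure D1:**
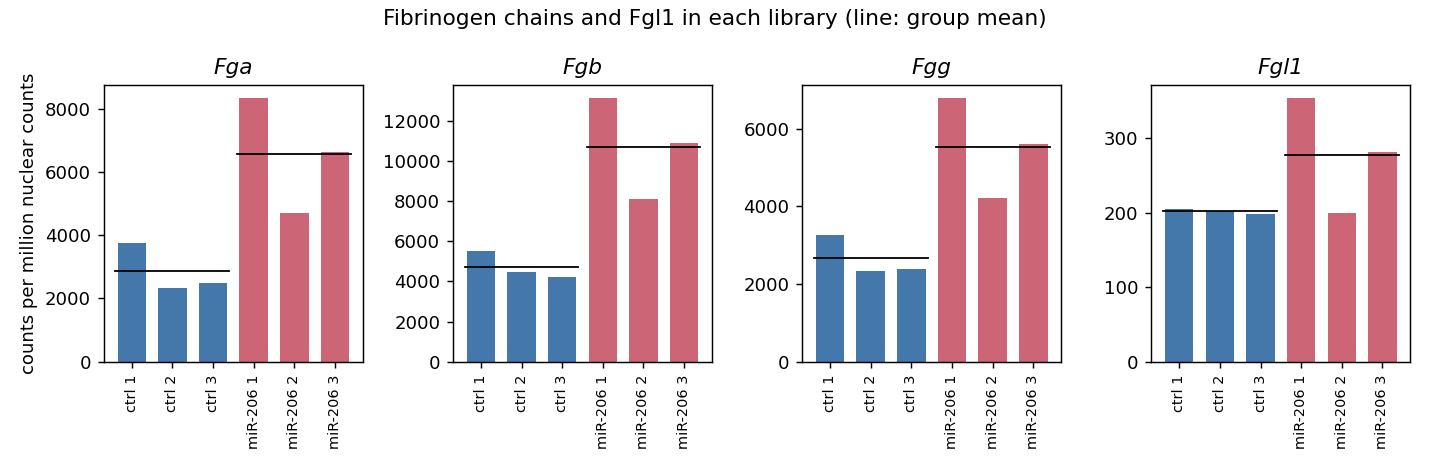
Level of each member in nuclear CPM (scaled to non-mitochondrial counts) in the 3 control and 3 miR-206 libraries, each bar a library and each line a group mean. Fga, Fgb and Fgg are higher in each miR-206 library than in any control, and Fgl1 overlaps.

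On total counts the picture was less clear. Fgb was 3549, 4042 and 3784 CPM in controls and 11670, 2926 and 5605 in miR-206 libraries, so the groups overlapped, as did those of the other 3 members. The library miR-206 2, in which mitochondrial genes took the largest share, was the lowest of the 6 on this scale for every member.

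The proportions of the chains to each other stayed within a narrow range. Ratios within a library need no scaling between libraries and are given as log2 ratios of counts per exonic kilobase. Fga to Fgb was -0.22, -0.58 and -0.41 in controls and -0.32, -0.44 and -0.38 in miR-206 libraries, a mean difference of 0.03 with overlapping groups. Fgg to Fgb was 0.10, -0.07 and 0.04 against -0.09, -0.08 and -0.10. That difference, -0.11, separated the groups but was small, and all 6 values spanned 0.19. Setting transcript length to the longest transcript moved the ratios but not their differences, and Fgg to Fgb became 0.36, 0.20 and 0.31 in controls and 0.18, 0.19 and 0.17 in miR-206 libraries.

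Fgl1 did not keep step with the chains. Its log2 ratio to their mean was -4.93, -4.46 and -4.51 in controls and -5.30, -5.39 and -5.34 in miR-206 libraries, -4.64 ± 0.26 against -5.34 ± 0.05 (SD, n = 3 each). The level of this ratio depended on the length used, since Fgl1 has 4434 exonic bases but 1120 in its longest protein-coding transcript. With the longest protein-coding transcripts the means were -2.81 in controls and -3.52 in miR-206 libraries, with the same difference. The difference was -0.71, and control 1 lay closest to the miR-206 libraries. Subtracting library background gave -0.74. Such a separation from the chains was not particular to Fgl1. Among all genes kept by the background filter, 68.1% had a higher ratio of chains to gene in each miR-206 library than in any control.

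**Figure D2:**
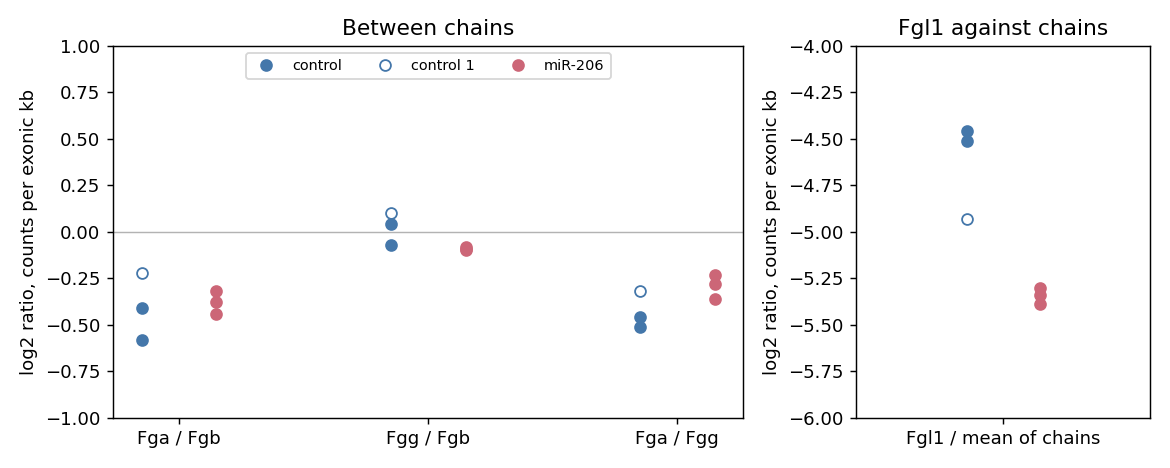
Log2 ratios of counts per exonic kilobase between members within each library, with one point per library and the open circle for control 1. Fga to Fgb overlaps between groups, while Fgl1 to the mean of the 3 chains is lower in each miR-206 library than in any control. Relative to the chains the same held for 68.1% of all genes kept by the background filter.

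Relative to the other products of the hepatocyte, the chains stood higher in the miR-206 libraries. Fgb counts were 14.4%, 8.45% and 7.97% of those of Alb, the albumin gene, in controls and 33.3%, 42.1% and 36.1% in miR-206 libraries. Fga counts were 9.74%, 4.45% and 4.72% of Alb in controls and 21.1%, 24.5% and 21.9% in miR-206 libraries. Fgl1 counts were 0.532%, 0.383% and 0.373% of Alb in controls and 0.895%, 1.04% and 0.93% in miR-206 libraries. No group overlapped for these ratios, and control 1 again lay nearest to the miR-206 libraries. Alb itself was 38561, 52659 and 52965 nuclear CPM in controls and 39544, 19196 and 30258 in miR-206 libraries. The share of all genes that separated in the same way against Alb was not computed. The separation is therefore not read as particular to the members.

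The same comparison was made against each of 23 hepatocyte identity genes. The log2 ratio of the chains' mean to the gene was higher in each miR-206 library than in any control for 23 of 23, with a median difference of 1.87. Among all genes kept by the background filter this held for 68.1%, and the opposite for 1.13%. The difference was smallest against Gc, the vitamin D carrier (0.74), Apoh (0.81) and Ahsg (0.92), all secreted plasma proteins. Among the largest were those against Cps1, an enzyme of the urea cycle (4.60), and Tdo2 and Tat, enzymes of amino acid breakdown (4.37 and 4.02). Genes at or below background in the miR-206 libraries, such as Foxa2, have a ratio of no reliable size. For Fgl1 the ratio was higher in 19 of 23, with a median difference of 1.17, beside 48.6% of genes kept by the filter and 3.86% in the opposite direction. The 4 that overlapped for Fgl1 were Foxa3, Serpina1a, Serpina1b and Gc.

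**Figure D3:**
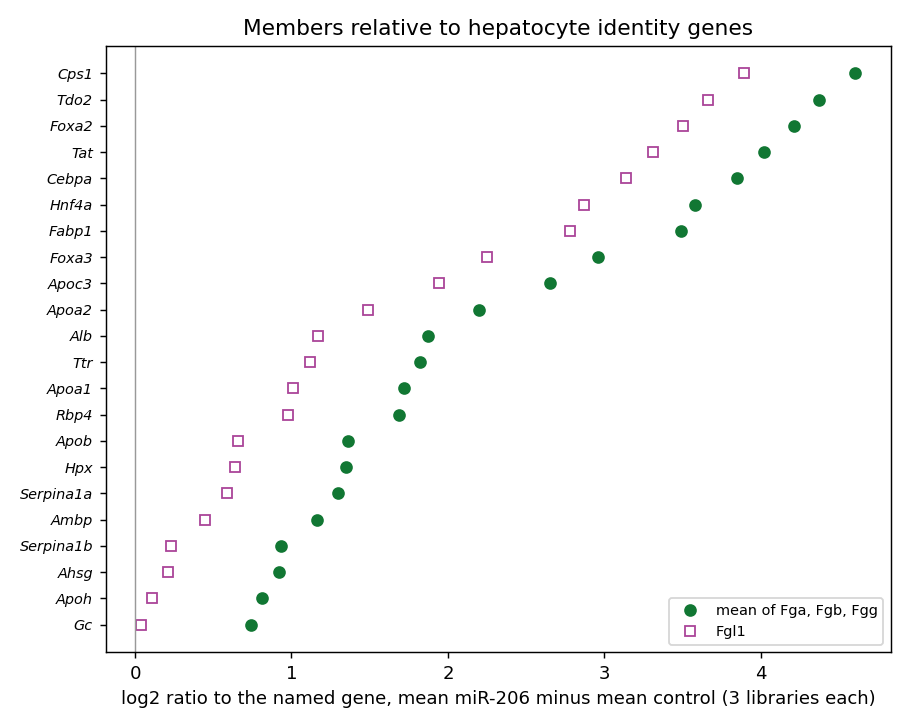
Difference between miR-206 and control libraries in the log2 ratio of the chains' mean, and of Fgl1, to each hepatocyte identity gene shown. Chain values run from 0.74 (Gc) to 4.60 (Cps1), and Fgl1 values from 0.04 (Gc) to 3.89 (Cps1), while Foxa2 and Cebpa were below background in the miR-206 libraries.

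The direction of the fold change depended on how libraries were scaled. With the deposited counts and TMM factors, which assume that most genes do not differ, the log2 fold change of miR-206 over control was -0.30 (SE 0.56) for Fga, -0.36 (0.58) for Fgb, -0.46 (0.55) for Fgg and -1.11 (0.50) for Fgl1, whereas scaling by nuclear library size gave 1.22 (0.35), 1.20 (0.33), 1.08 (0.33) and 0.49 (0.30). With nuclear library size, leaving out each library in turn gave 1.00 to 1.46 for Fga and 0.27 (without miR-206 1) to 0.67 (without miR-206 2) for Fgl1. The median over all genes tested also moved, from 0.45 to 2.00. Scaling to the summed hepatocyte identity genes gave 1.63 for Fga, 1.65 for Fgb, 1.52 for Fgg and 0.95 for Fgl1, with a median over all genes of 2.47. Among all 24382 genes tested with TMM, the chains stood at the 37.7th to 39.7th percentile of fold change and Fgl1 at the 29.7th. The rank depended on the genes compared. Among the 6458 genes kept by the background filter, which are not a neutral reference, the same fold changes stood at percentiles 94.3 to 96 for the chains and 83.5 for Fgl1.

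Background was read from 1702 olfactory and vomeronasal receptor genes, which hepatocytes are not known to express. It was 1.26 to 3.05 counts per exonic kb in controls and 3.70 to 5.45 in miR-206 libraries. The members stood far above it, with Fgb at 2739 to 11271 times background in controls and 1026 to 2339 times in miR-206 libraries, and Fgl1 at 87.1 to 447 and 21.7 to 54.1 times. After background subtraction, with genes averaging at least 10 times background retained, the log2 fold changes were 2.31 (SE 0.45) for Fga, 2.30 (0.42) for Fgb, 2.17 (0.42) for Fgg and 1.57 (0.36) for Fgl1. In that fit 18.5% of genes passed edgeR's test in the higher direction and 20.3% in the lower. With the deposited counts 25.8% passed as higher and 29.6% as lower. None of the 4 members passed there, and all 4 passed as higher after correction, which is not evidence for them since the same contrast chose them. Fgl1 passed as lower with DESeq2 (-1.35), without control 1 (-1.42) and without miR-206 1 (-1.64), and did not pass with background correction plus hepatocyte identity scaling (0.91). The chains passed as higher with nuclear library size and with hepatocyte identity scaling. With nuclear library size, no chain passed without control 3 or without miR-206 3, and only Fgb passed without control 2. After background correction, Fgl1 did not pass without control 2 or without control 3.

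**Figure D4:**
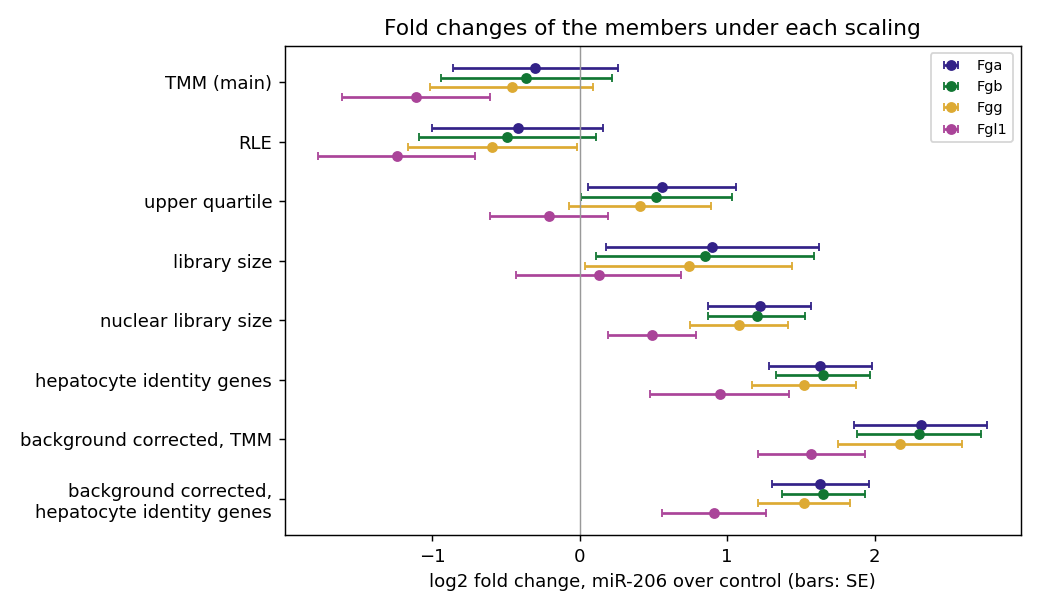
Log2 fold change of miR-206 over control with its SE for each member under each scaling of the libraries. Values are below 0 with TMM factors and above 0 with nuclear library size, hepatocyte identity scaling and background correction, and Fgl1 lies below the chains in each of these.

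The genes of fibrin formation were compared by number past the test (edgeR quasi-likelihood test, Benjamini-Hochberg adjusted p under 0.05), with direction again tied to the scaling. Of 15 coagulation factor genes tested with TMM, 0 rose and 5 fell, with a median of -1.10 against 0.45 over all genes, whereas 10 of 13 rose and 0 fell after background correction, with a median of 1.5 against -0.23. Over all genes, 25.8% rose and 29.6% fell with TMM, and 18.5% rose and 20.3% fell after correction. Leaving out 1 library gave 12 coagulation genes lower without control 1, 8 without miR-206 1, 3 without control 2 or miR-206 2, and 2 without control 3 or miR-206 3. F5 (factor V, the cofactor of thrombin formation) had log2 fold changes of -1.63 with TMM (adjusted p 0.0169) and 1.01 after correction (adjusted p 0.0397). Klkb1 (plasma prekallikrein) had -2.08 (adjusted p 0.00771) and 0.63 (adjusted p 0.113). F8 (factor VIII), which lay below background in the miR-206 libraries at 0.723 times, had -1.57 with TMM (adjusted p 0.00666) and was not retained after correction. Relative to the chains' mean, 9 of 13 genes had a higher ratio of chains to gene in every miR-206 library, close to the 68.1% of all genes kept by the filter, and F3, F11, F13b and Vwf overlapped. F2, which encodes prothrombin, differed from the chains by 0.64.

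Genes that restrain clotting followed the same split. Of 9 anticoagulant genes 0 rose and 6 fell with TMM, and 4 of 7 rose after correction with 0 lower, beside 29.6% of all genes lower with TMM and 18.5% higher after correction. Serpina10 and Proz, a protease inhibitor and its cofactor, had log2 fold changes of -2.01 (adjusted p 0.00806) and -2.21 (adjusted p 0.00841) with TMM, and 0.68 (adjusted p 0.123) and 0.53 (adjusted p 0.232) after correction. Thbd (thrombomodulin, an endothelial receptor of thrombin) had -2.06 (adjusted p 0.00111) and -0.93 (adjusted p 0.344), at 1.61 times background in the miR-206 libraries. Serpinc1 (antithrombin) differed least from the chains in this list, by 0.36.

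Among 10 fibrinolysis genes 1 rose and 2 fell with TMM, and 5 of 6 rose after correction, beside the same shares. With the replicate number as a block 0 fell, since Cpb2 (adjusted p 0.0572) and Plaur (adjusted p 0.052) no longer passed. The 2 lower calls became 4 without control 1, 1 without control 2, and 0 without control 3, miR-206 2 or miR-206 3, and the 1 higher call became 3 without control 1. Plat (tissue plasminogen activator) rose by 1.34 (adjusted p 0.00464) and, at 3.85 times background in the miR-206 libraries, was not retained after correction. Plaur (the urokinase receptor) had -1.38 (adjusted p 0.0376) with TMM and 0.25 (adjusted p 0.828) after correction. Cpb2 (a carboxypeptidase that protects fibrin) had -1.62 (adjusted p 0.0249) and 1.10 (adjusted p 0.039). Plg, which encodes plasminogen, differed from the chains by 0.27.

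With TMM all 16 regulators of fibrinogen transcription fell, beside 29.6% of all genes, with a median of -2.63. The 11 retained after correction lay at 0.203 to 5.78 times background in the miR-206 libraries, under the 10-fold minimum, so they passed it through the controls and had to tend lower. Their 4 lower calls after correction are therefore not read as a result. The ratio of chains to gene was higher in every miR-206 library for 10 of 11, with Il6ra overlapping, beside 68.1% of all genes kept by the same filter. The same selection through the controls bears on this count, so it is not read as a result either. Hnf4a (a nuclear receptor of hepatocyte identity) was 217 ± 93.6 nuclear CPM in controls and 38.9 ± 15.6 in miR-206 libraries (SD, n = 3 each), with a log2 fold change of -4.30 with TMM (adjusted p 0.000693), at 4.26 times background with miR-206. Foxa2, Hnf4a and Cebpa also fell with hepatocyte identity scaling and with nuclear library size. Foxa2 was counted at 59, 82 and 139 in controls and 3, 2 and 2 with miR-206, and Cebpa at 70, 535 and 517 against 9, 8 and 16. In the miR-206 libraries these were 0.203 and 0.862 times background, so their fold changes have no reliable size.

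Of 18 other interleukin-6 acute phase genes, 0 rose and 13 fell with TMM, and 5 rose and 1 fell after correction (9 rose with the other background filter). Over all genes 29.6% fell with TMM, and 18.5% rose and 20.3% fell after correction. The 13 lower calls became 8 with the replicate number as a block, 8 without control 2, control 3 or miR-206 3, and 7 without miR-206 2. The chains were higher relative to 15 of 18, beside 68.1% of all genes kept by the filter, and Saa2, Orm2 and Apcs overlapped. Of the 15, Lcn2, Steap4 and Il1r1 lay under 10 times background in the miR-206 libraries. They passed the filter through the controls, so the ratio of chains to gene had to tend higher. The excess over 68.1% is therefore not read as a result. Lcn2 (lipocalin-2, an iron-siderophore binder) fell by 3.80 with TMM (adjusted p 0.000271), but it lay at 1.34 times background in the miR-206 libraries, so the size is not reliable and its call after correction is not read. Steap4 (a metalloreductase) had -3.14 (adjusted p 0.000579) and -0.69 (adjusted p 0.0672), and Il1r1 (the interleukin-1 receptor) had -1.82 (adjusted p 0.00327) and 0.42 (adjusted p 0.211), at 4.39 and 2.99 times background in the miR-206 libraries. The chains stood apart from Saa1 by 2.24 on the log2 scale, and from Apcs (serum amyloid P) by 0.12. The ratio to Saa1 was 6.30 in control 1, close to the 6.33 of miR-206 2. The difference for Saa1 therefore came mainly from control 2 and control 3. Saa1 was counted at 4352 and 3674 in these, against 296 in control 1.

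The fibrinogen-like domain relatives were mostly low. Of 17 listed, 15 were tested with TMM, of which 5 rose and 5 fell, beside 25.8% and 29.6% of all genes. After correction 5 were retained, of which 1 rose and 1 fell, beside 18.5% and 20.3% of all genes. The 5 higher calls became 1 without miR-206 1 or miR-206 3, 2 without control 2 or miR-206 2 and 3 without control 3, and the 5 lower calls became 8 without control 1. Fcna (ficolin-A, a macrophage lectin) had -4.47 with TMM (adjusted p 0.000332) and -1.88 after correction (adjusted p 0.00396). At 5.91 times background with miR-206, it passed the filter through the controls, so its call after correction is not read. The summed Kupffer cell markers were also lower in the miR-206 libraries. Whether those cells account for the lower Fcna was not tested. Angptl4 and Angptl6 had -2.32 and -2.09 with TMM (adjusted p 0.00414 and 0.00971), Angptl2 -2.34 (adjusted p 0.012) and Fgl2 -1.91 (adjusted p 0.00286), all secreted fibrinogen-like proteins. After correction Angptl4 turned to 0.41 (adjusted p 0.255), and Angptl6 (-0.43, adjusted p 0.746) and Fgl2 (-0.94, adjusted p 0.24) did not pass. Angptl2, at 0.734 times background in the miR-206 libraries, was not retained. Tnr (tenascin-R, an extracellular matrix protein of the nervous system) rose by 1.80 (adjusted p 0.00343), at 1.85 times background, and was likewise not retained.

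**Figure D5:**
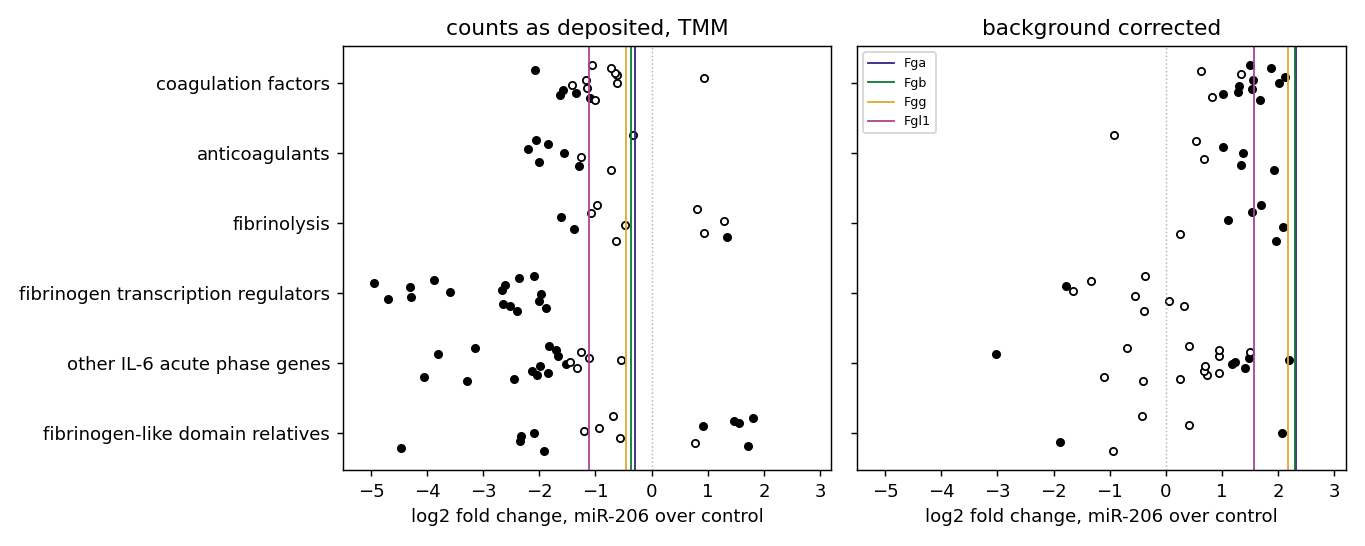
Log2 fold change of each listed gene with the deposited counts (left) and after background correction (right), where filled points passed an adjusted p under 0.05 and vertical lines mark the members. Genes below background in the miR-206 libraries are left out of the right panel, signs differ between panels, and retained genes under 10 times background there passed the filter through the controls.

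The genes whose log2 CPM was most like the chains over 6 libraries, among 1187 genes with a mean of at least 50 CPM, included Entpd5 (r = 0.993), Ces1g (0.990), Ces2a (0.987) and Dpp4 (0.986). For Fgl1 they were Apoh (0.999), Slc10a1 (0.999), F9 (0.998), Vtn (0.998) and F2 (0.998). Among the members, r was 0.987 between Fgb and Fgg and 0.866 between Fga and Fgl1. These are descriptions over points that share their scaling and library depth.

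Total counts ran from 4157947 to 15244017 per library, and the controls were the deeper group. Control 1 stood apart from the other two controls in its mitochondrial share and background. Hepatocyte identity markers were present in all libraries, at 74774 to 146994 summed CPM in controls and 25265 to 119689 in miR-206 libraries. Kupffer cell markers were 306 to 1004 against 63.8 to 87.5, and cholangiocyte markers 538 to 2564 against 50 to 200. Across 8 marker lists the exact two-sided permutation test on summed CPM, whose smallest p for 3 against 3 is 0.1, gave 0.1 for Kupffer cell, cholangiocyte, sinusoidal endothelial and lymphocyte markers (adjusted 0.2) and 0.2 for hepatocyte markers (adjusted 0.229). On nuclear CPM the same test gave 0.3 for sinusoidal endothelial markers (adjusted 0.4), whose groups then overlapped. It gave 0.1 for platelet markers (adjusted 0.2), at 28.2 to 45.1 nuclear CPM in controls and 47.4 to 61 in miR-206 libraries. These sums were low and background was higher in the miR-206 libraries. The platelet difference turned its sign after background subtraction, so it is not read as more platelet RNA. In these bulk libraries fewer cells of a type and less RNA per cell cannot be told apart, and their part in the members' levels was not tested.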

How the data were processed

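Gene counts were measured in 6 libraries, 3 of GFP-negative and 3 of GFP-positive sorted hepatocytes, made per the labels with a SMARTER mRNA-Seq kit. The deposited table holds raw counts per gene, made by the authors and not normalised. The builds GRCm 38 and mm 10 are named per the submitters' processing notes; for the aligner, the counter, the annotation and strandedness, no name is given in the sources used here. Of 49315 genes, 49056 matched GENCODE M21 by identifier.

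The 4 members and the gene lists were chosen with earlier results of these data known. Genes passing filterByExpr (minimum count 10) received TMM factors, and group differences were tested by the quasi-likelihood method of edgeR 4.0.16 (robust, group as the single term, Benjamini-Hochberg adjusted p under 0.05). DESeq2 1.42.0, RLE, upper-quartile, library size and hepatocyte identity scaling, no filter, a replicate block and leaving out each library were alternatives. The background-corrected fit subtracted receptor counts per exonic kb times exonic length and kept nuclear protein-coding genes averaging at least 10 times that background, as the mean over libraries of counts over background. The planned wording also allows mean counts over mean background, which was run first and replaced because the other reading matched the number of genes of an earlier analysis; both are reported. Log2 CPM used a prior count of 2. Scaling by nuclear library size, ratios to hepatocyte genes and lengths of the longest transcript were added after seeing the data. Genes named besides the members were in each list the 3 of smallest p, those called against their list's majority direction, and the 5 genes most like the chains and like Fgl1; others were chosen after their values were seen. Scripts were tested on simulated data. R 4.3.3, limma 3.58.1, Python 3.11.15 and scipy 1.17.1 were used. The p-values take the 6 libraries as separate samples, while the design text may draw both fractions from 3 shared mice, and they measure only the spread between these libraries. Per-library depth was 4157947 to 15244017 counts. A few genes that were tested are named nowhere here and are not reported.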

Additional observations from a re-analysis of the deposited data

How the results depend on the processing

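Chain differences within libraries need no scaling, whereas fold changes of the 4 members changed sign with it. Member values (Fga, Fgb, Fgg, Fgl1) were 0.56, 0.52, 0.41 and -0.21 with upper-quartile factors, 0.90, 0.85, 0.74 and 0.13 with library size alone, 1.22, 1.20, 1.08 and 0.49 with nuclear library size, 1.63, 1.65, 1.52 and 0.95 with hepatocyte identity scaling, 2.31, 2.30, 2.17 and 1.57 after background correction, and 1.63, 1.65, 1.52 and 0.91 with both. RLE factors, no filter, dropping mitochondrial genes and DESeq2 kept the sign of TMM for all 4. The cause of these shifts was not tested, but the scalings assume different stable genes.

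Genes called were 13502 with TMM (6289 higher, 7213 lower). Higher calls were 10629 with upper-quartile factors, 11642 with library size alone, 13794 with nuclear library size, 14479 with hepatocyte identity scaling, 1194 after background correction and 212 with both, and lower calls, in that order, were 4812, 3774, 2557, 646, 1311 and 1039. In all, 2505 genes were called after correction and 1251 with both. Leaving out each library in turn gave 8472 (without miR-206 3) to 19532 (without control 1) genes called and 1916 to 10674 called higher. Without one library Fga ran from -0.84 (without miR-206 1) to -0.14 (without miR-206 2), Fgb from -0.85 to -0.23 and Fgg from -0.96 to -0.33.

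List members called higher were 6 with TMM and 10, 11, 18, 23, 25 and 10 with upper-quartile, library size, nuclear library size, hepatocyte identity scaling, background correction and both, and lower calls were 47 and then 27, 16, 11, 6, 6 and 6. Leaving out each library gave 2 to 9 higher. Signs turned for F8 (0.63 with hepatocyte identity scaling, 0.05 with nuclear library size), and with hepatocyte identity scaling, background correction and both for Klkb1 (0.20, 0.63, 0.10), F5 (0.46, 1.01, 0.41), Serpina10 (0.15, 0.68, 0.06), Cpb2 (0.47, 1.10, 0.46) and Il1r1 (0.52, 0.42, 0.00). They also turned after correction for Proz (0.53), Plaur (0.25) and Angptl4 (0.41), with hepatocyte identity scaling for Plaur (0.43), Fgl2 (0.29) and Angptl2 (0.13), and for summed platelet markers after background subtraction (-1.07).

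The background filter can be read in another way, as mean counts over mean background, and that reading was run first; the filter on per-library ratios was kept in its place after it matched the number of genes in an earlier analysis of these data. On mean counts over mean background, 4209 genes were tested and 1474 called, 812 higher and 662 lower, and Fga, Fgb, Fgg and Fgl1 were 2.60, 2.59, 2.46 and 1.87. List members called were 30 higher and 5 lower, with 9 acute phase genes higher in place of 5, and signs turned against TMM for Klkb1 (0.93), F5 (1.30), Serpina10 (0.98), Proz (0.84), Cpb2 (1.4), Il1r1 (0.71) and Angptl4 (0.71), of which Klkb1 (adjusted p 0.0392), F5 (adjusted p 0.0254) and Cpb2 (adjusted p 0.0245) passed the test. The chain ratio was higher for 80.2% of the genes kept by it and the Fgl1 ratio for 62.5%.

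With a replicate block, 5362 genes were higher and 6697 lower, and Fga, Fgb, Fgg and Fgl1 were -0.39, -0.42, -0.53 and -1.16. The block ended the calls of Cpb2 and Plaur and took lower acute phase calls from 13 to 8. Same-numbered libraries did not deviate together (r 0.008, 0.023 and -0.006), so the numbers were not treated as pairs. Genes near background are the least certain, and background counts were higher in the miR-206 libraries although these were shallower. Both background filters pass genes that are high in the controls alone.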
